A study of Mus musculus with 4 samples.

Results

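The genes described here are 10 transcripts that the ERK pathway raises and whose products, with 2 exceptions, hold that pathway back: Dusp4, Dusp5, Dusp6, Spry1, Spry2, Spry4, Spred1, Spred2, Etv5 and Phlda1. They were taken from the deposited table by gene symbol, 10 of its 55401 rows, and each symbol had a row. RNA sequencing was done on mouse cells from the ovary of C57BL/6 mice that the labels call female germline stem cells. There were 2 libraries of cells treated with daidzein, an isoflavone from soy with weak oestrogen-like activity, and 2 of cells given DMSO. All cultures shared a medium with serum and 4 added mouse factors, namely epidermal growth factor, basic fibroblast growth factor, leukemia inhibitory factor (LIF) and glial cell line-derived neurotrophic factor (GDNF). The labels speak of several concentrations without saying which one these libraries had, and give no duration or animal age. They do not say whether replicates were separate cultures either. The p-values therefore reflect the spread between these libraries alone, which may be technical.

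ERK is the last kinase of a relay that growth factor receptors start through Ras, Raf and MEK. Active ERK switches on a fast wave of genes such as Fos and Egr1, and with them a set of inhibitors that close the loop. Dusp proteins remove phosphate from ERK itself, whereas Sprouty and Spred proteins act above it, between the receptor and Raf. Because their transcripts follow ERK activity, levels of Dusp6, the Sprouty genes and the ETS factor Etv5 are widely read as pathway output. In mouse testis, Etv5 is also known as a target of GDNF that germline stem cells need. Transcript counts do not measure ERK phosphorylation.

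Per library the counts summed to 17192077 and 18537134 with daidzein and 16230400 and 17119625 with DMSO. The label of the cells was checked against markers. The summed level of 6 mast cell and blood markers was 2169 to 2273 CPM (reads scaled to library size) with daidzein and 2166 to 2265 CPM with DMSO, of which Gata2, Cpa3 and Ptprc made nearly all, while Fcer1a had 0 reads and Hdc at most 4. The sum of 8 germline markers was 4.21 to 4.73 CPM with daidzein and 4.70 to 5.53 CPM with DMSO, nearly all of it Zbtb16, with Pou5f1, Dppa3 and Gfra1 at 0 reads and Ddx4 at 2 reads in a single DMSO library. The macrophage markers summed to 121 to 128 CPM with daidzein, against 134.7 to 134.8 CPM with DMSO, nearly all of it Adgre1, with 2006 and 2339 reads with daidzein and 2123 and 2246 with DMSO, while Csf1r had at most 2. Scaled, Adgre1 was lower in both daidzein libraries, at 117 and 126 CPM, against 131.4 and 130.8 CPM with DMSO, and did not pass the test. Its part in the results was not tested. Ovarian somatic markers summed to 5.09 to 7.57 CPM with daidzein and 7.16 to 7.86 CPM with DMSO, from Star and Amh, with Foxl2 and Fshr at 0 reads. Fibroblast markers summed to 0.430 to 0.702 CPM with daidzein and 0.309 to 0.932 CPM with DMSO. The markers therefore go against the label, and the comparison is between libraries of this make-up. In such bulk samples a lower share of a cell type and less RNA per cell cannot be told apart. The receptor genes Egfr, Fgfr2, Gfra1 and Lifr, which would read the added growth factors, had 0 reads in every library. Fgfr1 had at most 5 reads and Ret at most 12. Il6st, from the same list of receptor genes, had 119 to 164 reads per library. Receptors outside that list were not read, so others for these factors may be present. Kit, a receptor of blood and germ cells that also feeds Ras and ERK, had 10620 and 12205 reads with daidzein, against 10574 and 11263 with DMSO.

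The start regions of the 3 members with the highest level per length are shown here because growth factor signals reach such genes through them. Each is 250 bases before to 50 after a RefSeq start site on GRCm38.p6, written in the direction of transcription, Dusp5 at chr19:53528895-53529194 (plus strand), Dusp6 at chr10:99262981-99263280 (plus strand) and the inner start of Etv5 at chr16:22438319-22438618 (minus strand). Capitals mark matches to a CArG box, the element read by serum response factor, to the ETS core GGAAGT and to the cAMP response core TGACGT.
Dusp5: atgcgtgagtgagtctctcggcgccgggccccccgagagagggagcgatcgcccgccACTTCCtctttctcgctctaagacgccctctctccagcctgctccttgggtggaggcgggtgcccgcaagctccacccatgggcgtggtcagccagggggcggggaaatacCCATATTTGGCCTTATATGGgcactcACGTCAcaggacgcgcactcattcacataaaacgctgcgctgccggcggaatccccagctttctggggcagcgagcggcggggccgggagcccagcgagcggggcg
Dusp6: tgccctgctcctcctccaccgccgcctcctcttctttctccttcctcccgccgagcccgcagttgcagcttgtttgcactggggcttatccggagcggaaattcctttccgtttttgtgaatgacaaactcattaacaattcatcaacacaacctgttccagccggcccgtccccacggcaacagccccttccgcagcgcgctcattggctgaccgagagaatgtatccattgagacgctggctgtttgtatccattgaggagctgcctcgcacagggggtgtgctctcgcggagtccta
Etv5: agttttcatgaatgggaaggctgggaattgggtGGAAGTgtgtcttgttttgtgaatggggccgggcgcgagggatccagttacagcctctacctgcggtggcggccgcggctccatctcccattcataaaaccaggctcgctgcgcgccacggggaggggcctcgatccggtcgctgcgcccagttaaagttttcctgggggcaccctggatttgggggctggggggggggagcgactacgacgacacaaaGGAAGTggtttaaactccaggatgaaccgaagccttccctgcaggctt
In Dusp5 a pair of CArG boxes, CCATATTTGG and CCTTATATGG, lay side by side at positions -82 to -73 and -72 to -63 (the start site is 0), with a cAMP response core at -56 to -51 and an ETS core at -193 to -188, both on the opposite strand. Etv5 had an ETS core at positions -217 to -212 and another at 2 to 7 from its inner start. The window at its outer start held no match, and the inner one was chosen for printing after the matches were seen. Dusp6 had no match, which says only that these letters are not in this window. Both strands were searched, and the matches are letters, not tested sites. Among 32851 windows of this length in the RefSeq table, 1.63% held a CArG box, 23.8% the ETS core and 7.51% the cAMP response core. The table had a window for 7 of the 10 members, 8 windows in all. Of these, 1 held a CArG box, 3 the ETS core and 2 the cAMP response core. The AP-1 site TGACTCA, in 5.20% of all windows, was in 0 of the 8. Longer forms of 2 of the motifs were searched as well. The ETS site CCGGAAGT, in 3.89% of all windows, and the full cAMP response element TGACGTCA, in 1.79%, were each in 0 of the 8.

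The 10 transcripts differed widely in level, in the same order by FPKM and by TMM-normalized CPM per length. In FPKM as deposited (reads scaled to exonic length and library size), Dusp5 was the highest, with 16.3 and 16.2 FPKM in the daidzein libraries and 17.02 and 14.93 in the DMSO libraries. It was followed by Dusp6, with a mean of 14.2 FPKM over the 4 libraries, Etv5 with 14.2, Spred2 with 10.1 and Spred1 with 9.80. Below these came Spry1 with 5.50, Spry4 with 2.52, Phlda1 with 1.58, Spry2 with 0.508 and Dusp4 with 0.278 FPKM. The ranges over the 4 libraries overlapped between Dusp6 and Etv5, between Spred2 and Spred1 and between Spry2 and Dusp4, so these neighbours cannot be put in order. All other neighbours were separated. Among the 11700 genes with enough reads to test, Dusp5 stood at the 69.8th percentile of level and Dusp4 at the 4.37th. The Dusp genes spanned this range, the Sprouty genes stood between the 8.80th (Spry2) and 44.0th (Spry1) percentile, and both Spred genes stood above all Sprouty genes, at the 57.9th (Spred1) and 58.7th (Spred2). All 10 passed the filter on low counts.

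**Figure D1:**
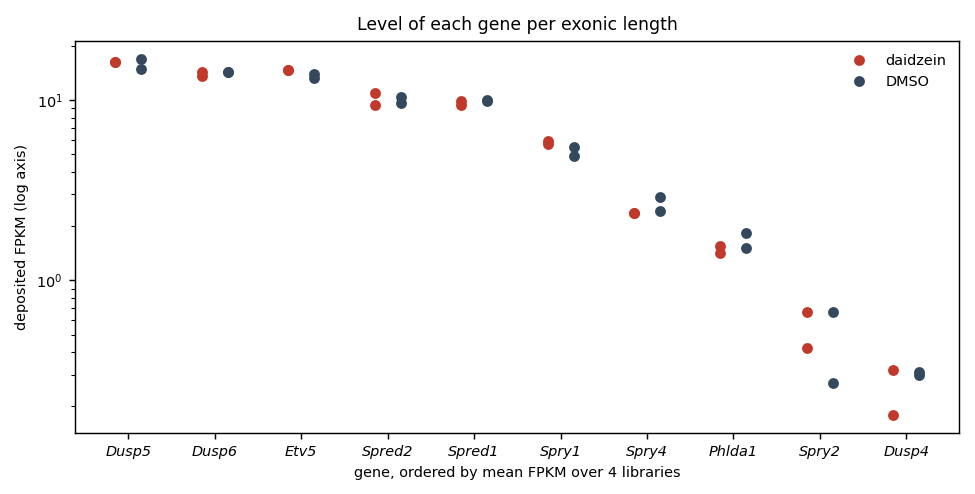
Deposited FPKM (log axis) of the 10 genes in each of the 2 daidzein and 2 DMSO libraries, ordered by the mean over the 4 libraries. Values run from 14.93 to 17.02 FPKM for Dusp5 down to 0.180 to 0.320 FPKM for Dusp4. Points lie apart for the lowest genes, as for Spry2 from 0.27 to 0.67 FPKM.

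Daidzein was not accompanied by a detectable change in any of the 10 genes. Over 11700 genes tested by edgeR (quasi-likelihood F test, Benjamini-Hochberg adjustment), 0 of the 10 rose and 0 fell, each with an adjusted p of 1.00, and 0 of the 10 had an unadjusted p under 0.05. By DESeq2 0 of the 10 were called as well. Over all tested genes 0.0171% were called, namely Fos and Fosb, and 2.91% had an unadjusted p under 0.05, so a count of 0 among 10 is near the background. Of the 10 genes, 5 were higher and 5 lower with daidzein, and their median log2 difference was -0.01, against -0.0027 over all tested genes. Their median absolute log2 difference was 0.14, against 0.06 over all tested genes, which were not matched to the members for level. Dusp4 at -0.32 and Spry2 at 0.21, the members with the lowest levels, had the largest differences. Summed over the 10 genes the level was 286 and 295 CPM in the daidzein libraries, against 291 and 285 CPM in the DMSO libraries, a ratio of 1.01 with no test.

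What the data bound is the size of change that could have gone unseen between these libraries. Like the p-values, the intervals reflect the spread between these libraries alone, which may be technical. Both draw the spread of each gene toward a trend over all tested genes, so much of their precision is borrowed from other genes. All 10 intervals of the fold (95%, computed from edgeR's fit) included 1. For 7 genes the interval stayed within 1.5-fold in either direction, and for 5 of these, Dusp5, Dusp6, Spred1, Spred2 and Etv5, within 1.3-fold. For Dusp4, Spry2 and Phlda1, the members with the fewest reads, it was wider.

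The phosphatase genes came out as follows. Dusp6 (ENSMUSG00000019960; GRCm38 chromosome 10, 99263231 to 99267489, plus strand) encodes the cytoplasmic phosphatase specific for ERK. It had 734 and 836 reads with daidzein, against 731 and 771 with DMSO, which is 43.9 ± 1.37 CPM and 45.1 ± 0.238 CPM (SD, n = 2 each). The fold was 0.975 with an interval of 0.868 to 1.09, so a larger change than these bounds lies outside the interval. Dusp5 (ENSMUSG00000034765; chromosome 19, 53529109 to 53542431, plus strand) encodes a nuclear phosphatase that also holds ERK in the nucleus. It had 693 and 743 reads with daidzein, against 683 and 632 with DMSO, and once scaled the daidzein libraries, at 40.6 and 39.9 CPM, lay between the DMSO libraries, at 42.3 and 36.8 CPM. Its fold was 1.02 (0.895 to 1.16), and its log2 difference of 0.03 turned to -0.07 without DMSO replicate 2. Dusp4 (ENSMUSG00000031530; chromosome 8, 34807297 to 34819894, plus strand), another nuclear phosphatase, was barely detected, with 15 and 9 reads with daidzein, against 14 and 14 with DMSO. Its fold of 0.803 had an interval of 0.394 to 1.64, and its log2 difference of -0.32 rested on daidzein replicate 2, without which it was 0.07. It was -0.79 without daidzein replicate 1.

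The Sprouty genes encode membrane-bound inhibitors that receptor signals induce and that act between the receptor and Raf. Spry1 (ENSMUSG00000037211; chromosome 3, 37639947 to 37644598, plus strand) had 295 and 309 reads with daidzein, against 230 and 273 with DMSO, or 16.9 ± 0.475 CPM and 15.1 ± 1.18 CPM (SD, n = 2 each). Both daidzein libraries were above both DMSO libraries, but the fold of 1.12 (0.941 to 1.34) did not pass. Its log2 difference of 0.17 was 0.09 without DMSO replicate 1, and leaving out DMSO replicate 2 gave 0.25. Spry4 (ENSMUSG00000024427; chromosome 18, 38586247 to 38601415, minus strand) had 194 and 209 reads with daidzein, against 224 and 198 with DMSO. Scaled, the daidzein libraries stood at 11.4 and 11.2 CPM and the DMSO libraries at 13.9 and 11.5 CPM, so that DMSO replicate 1 alone was set apart. The fold was 0.890 (0.727 to 1.09), and the log2 difference of -0.17 shrank to -0.03 without DMSO replicate 1 and was -0.29 without DMSO replicate 2.

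Spry2 (ENSMUSG00000022114; chromosome 14, 105891947 to 105896819, minus strand) had 15 and 26 reads with daidzein, against 9 and 24 with DMSO. Replicate 2 had more reads than replicate 1 in both groups, by 0.67 on the log2 scale with daidzein and 1.33 with DMSO. Counting error is large at such low counts, and an effect of replicate number was not tested. Its fold was 1.16 (0.593 to 2.26). The log2 difference of 0.21 turned to -0.29 without DMSO replicate 1 and to -0.16 without daidzein replicate 2, while leaving out DMSO replicate 2 gave 1.03 and leaving out daidzein replicate 1 gave 0.50, so no direction can be given. Pooled per group the ratio per depth was 1.16, and counting error alone (exact binomial) allowed 0.715 to 1.89.

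Spred1 and Spred2 encode Sprouty-related proteins with an EVH1 domain, of which Spred1 brings the Ras inhibitor neurofibromin to the membrane. Spred1 (ENSMUSG00000027351; chromosome 2, 117121374 to 117182279, plus strand) was the member with the most reads, 1095 and 1244 with daidzein, against 1094 and 1158 with DMSO. At 65.4 ± 1.92 CPM with daidzein and 67.6 ± 0.186 CPM with DMSO (SD, n = 2 each) its fold was 0.969 (0.875 to 1.07). Spred2 (ENSMUSG00000045671; chromosome 11, 19924375 to 20024026, plus strand) had 750 and 943 reads with daidzein, against 722 and 827 with DMSO, and the groups overlapped. Its fold was 1.02 (0.898 to 1.16), and its log2 difference of 0.03 turned to -0.03 without DMSO replicate 1 and to -0.08 without daidzein replicate 2, while leaving out DMSO replicate 2 gave 0.08 and leaving out daidzein replicate 1 gave 0.12.

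Etv5 and Phlda1 are the members that are not ERK inhibitors of the kinds above. Etv5 (ENSMUSG00000013089; chromosome 16, 22381309 to 22439719, minus strand), a transcription factor of the ETS family, had 1033 and 1123 reads with daidzein, against 931 and 935 with DMSO. This was 60.4 ± 0.106 CPM with daidzein and 56.0 ± 2.24 CPM with DMSO (SD, n = 2 each), with both daidzein libraries above both DMSO libraries. The fold of 1.08 (0.968 to 1.20) had the smallest unadjusted p of the 10 in edgeR's test, 0.160, rank 1380 among all tested genes. A processed pseudogene, Gm4798, matches a share of 0.506 of an Etv5 transcript at 95% identity or more, so how reads common to both were counted is uncertain. It had 2 and 1 reads of its own with daidzein and 2 and 5 with DMSO. Phlda1 (ENSMUSG00000020205; chromosome 10, 111506286 to 111508645, plus strand), a small pleckstrin homology-like protein induced by growth factors, had 59 and 58 reads with daidzein, against 66 and 57 with DMSO. Its fold was 0.888 (0.631 to 1.25) and the groups overlapped. Its log2 difference of -0.17 was -0.02 without DMSO replicate 1, and leaving out daidzein replicate 2 gave -0.09. Leaving out DMSO replicate 2 gave -0.31.

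**Figure D2:**
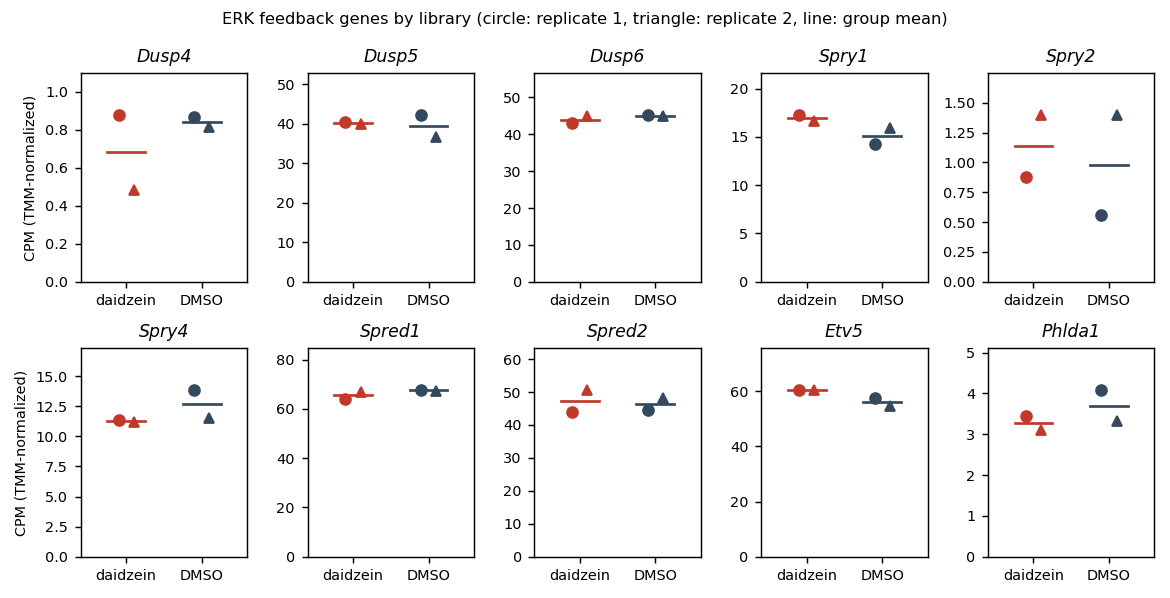
TMM-normalized CPM of each gene in the 2 daidzein libraries (red) and the 2 DMSO libraries (dark), with replicate 1 as a circle, replicate 2 as a triangle and the group mean as a line, each axis from 0. Spry2, from 0.557 to 1.40 CPM, is higher in replicate 2 of both groups, at low counts. Etv5 sits at 60.5 and 60.3 CPM with daidzein and 57.6 and 54.5 CPM with DMSO.

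In 5 of the 10 genes the daidzein and DMSO libraries did not overlap, against 29.7% of all tested genes. Spry1 and Etv5 were above in both daidzein libraries, and Dusp6, Spry4 and Spred1 were below in both. Dusp6 was separated only by TMM, the default scaling of edgeR, and not by DESeq2's size factors or total counts, which left 4. For 8 of the 10 genes the larger of the differences between replicates of one group exceeded the difference between the group means. The larger of 2 differences between single libraries tends to exceed a difference between means even where nothing changed. Replicate 2 was below replicate 1 in both groups for 5 genes and above it in both for 2, Spry2 and Spred2. The shares of all tested genes were not computed for these replicate counts, so they are no result about the members.

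**Figure D3:**
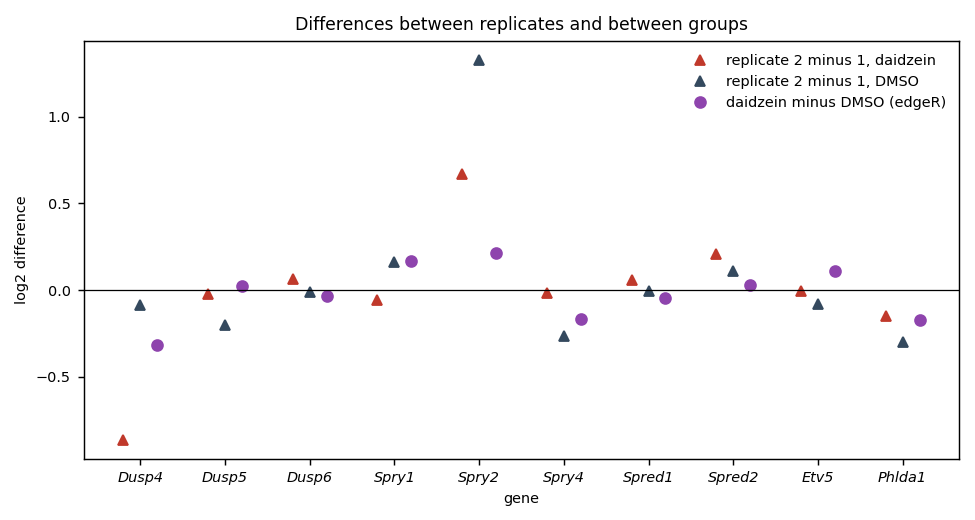
Log2 differences between replicates within the daidzein group and within the DMSO group (triangles) beside the difference between daidzein and DMSO (circles) for each gene. The replicate differences reach 1.33 for Spry2 in DMSO and -0.86 for Dusp4 in daidzein, beyond their group differences of 0.21 and -0.32.

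Over the 4 libraries the gene whose centred log2 CPM was closest to that of Dusp6 was Spred1, with a root mean square difference of 0.0050. Ube3c followed with 0.0056 and Scrib with 0.0059. Closeness to a nearly flat gene is common here, as 60.4% of the 11699 other tested genes lay within 0.1. Spry2 was the member farthest from Dusp6, at 0.486.

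The deposited table lists gene ontology terms for the members, which largely restate why the genes were chosen. Inactivation of MAPK activity was given to 5 of them, Dusp4, Dusp5, Dusp6, Spred1 and Spred2, among 17 tested genes with that term. Negative regulation of the ERK1 and ERK2 cascade was given to 3, Dusp6, Spry1 and Spry2, among 19. These terms describe what the proteins do and were not tested.

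Relatives of the members were read from lists of the same families. Of 7 other phosphatases of the Dusp family that act on MAP kinases, 5 could be tested, 2 were higher and 3 lower, and 0 passed. Dusp1, an early gene that acts on several MAP kinases, had 155 and 131 reads with daidzein, against 177 and 137 with DMSO, with a fold of 0.850 (0.657 to 1.10). Its log2 difference of -0.23 was 0.01 without DMSO replicate 1. Dusp10, which acts mainly on the stress kinases p38 and JNK, had 26 and 26 reads with daidzein, against 9 and 27 with DMSO, with a fold of 1.35 (0.723 to 2.53). Its log2 difference of 0.43 was -0.11 without DMSO replicate 1. Of 6 family members outside the 10, 2 could be tested, 0 higher and 2 lower, and 0 passed. Spred3 had 49 and 64 reads with daidzein, against 65 and 77 with DMSO, a fold of 0.743 (0.534 to 1.03) that did not pass, although its groups did not overlap. Etv4, the closest relative of Etv5 here, had 849 and 823 reads with daidzein, against 846 and 768 with DMSO, and a fold of 0.967 (0.848 to 1.10). Its log2 difference of -0.05 was 0.07 without DMSO replicate 1.

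The kinases and adaptors above the feedback loop did not pass either. Of 23 genes of the Ras to ERK relay 22 were tested, 16 higher and 6 lower with daidzein, and 0 passed in edgeR's test. Over all tested genes 5697 were higher and 6003 lower, and the split of directions in the relay was not tested. Their log2 differences ran from -0.05 to 0.14. Sos2, an exchange factor that loads Ras, and Ptpn11, a phosphatase that promotes Ras signalling, had the smallest p, with folds of 1.10 (0.956 to 1.26) and 1.06 (0.966 to 1.15). Mapk3, which encodes an ERK kinase, had 1029 and 1053 reads with daidzein, against 977 and 886 with DMSO, and a fold of 1.04 (0.924 to 1.18). Of 11 other negative regulators, 6 were higher and 5 lower, and 0 passed. The Ras inhibitors Rasa2 and Rasa1 had folds of 1.11 (0.979 to 1.27) and 1.06 (0.951 to 1.18). Of 10 receptor genes only Kit and Il6st could be tested, with folds of 0.974 (0.904 to 1.05) and 0.909 (0.718 to 1.15).

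The early ERK targets are the list in which calls were made. Of 16 listed, 13 were tested, 1 higher and 12 lower with daidzein, and Fos and Fosb fell. Among all tested genes 5697 were higher and 6003 lower. An unadjusted p under 0.05 was found for 6 of the 13, against 2.91% of all tested genes. Besides Fos and Fosb these were Junb with 0.000267, Ier3 with 0.000376, Ier2 with 0.00117 and Egr1 with 0.00338 in edgeR's test, all lower with daidzein and none past the adjusted threshold. The list median log2 difference was -0.13, against -0.0027 over all tested genes, a description with no test of the list. The list was chosen with earlier results of these data known, so its counts and median are no independent support for a shift. Fos had 478 and 580 reads with daidzein, against 1027 and 786 with DMSO, a fold of 0.542 (0.457 to 0.643) with an adjusted p of 0.00551 by edgeR. Fosb had 103 and 157 reads with daidzein, against 333 and 233 with DMSO, a fold of 0.426 (0.325 to 0.560) with an adjusted p of 0.0177 by edgeR. By DESeq2 on the same 11700 genes Fos had an adjusted p of 1.00 and Fosb of 0.00253, while DESeq2 on all genes with a read, an alternative chosen after seeing the data, gave 0.000103 and 0.0116. Neither passed by limma on log2(FPKM + 1), with 0.665 for Fos and 0.836 for Fosb. Over all alternatives the adjusted p ran from 1.23e-21 to 1.00 for Fos and from 1.21e-13 to 0.887 for Fosb. Egr1, a target of ERK through ETS factors that was named after its values were seen, had 808 and 1088 reads with daidzein, against 1183 and 1033 with DMSO. Its fold was 0.794 (0.688 to 0.917), with an adjusted p of 1.00 by edgeR. In fits that leave 1 library in a group, whose spread is then taken from the other group alone, it passed without DMSO replicate 2, at 0.00106, and without daidzein replicate 2, at 0.00359, and was between 0.0811 and 1.00 in the other settings.

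Set against Dusp6 within each library, which removes library scaling, Fos had 0.651 and 0.694 reads per Dusp6 read with daidzein and 1.40 and 1.02 with DMSO. Egr1 had 1.101 and 1.301 reads per Dusp6 read with daidzein, against 1.62 and 1.34 with DMSO. Both ratios were lower in both daidzein libraries, and the ratio of their group means was 0.555 for Fos and 0.812 for Egr1. Since Dusp6 hardly differed between the groups, these ratios largely restate the differences of Fos and Egr1 given above. A difference in response between the early genes and the feedback genes was not tested.

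**Figure D4:**
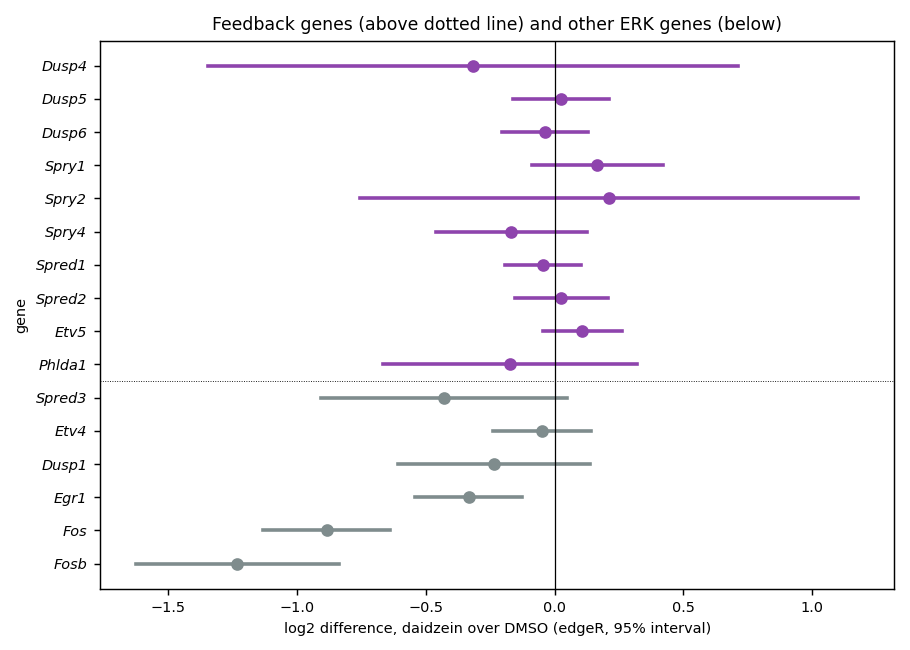
Log2 difference between daidzein and DMSO with its 95% interval, computed from edgeR's fit, for the 10 feedback genes (above the dotted line) and for 6 other genes of the pathway (below). The intervals of the 10 feedback genes cross 0, whereas that of Fos runs from -1.13 to -0.64 and that of Fosb from -1.62 to -0.84.

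**Figure D5:**
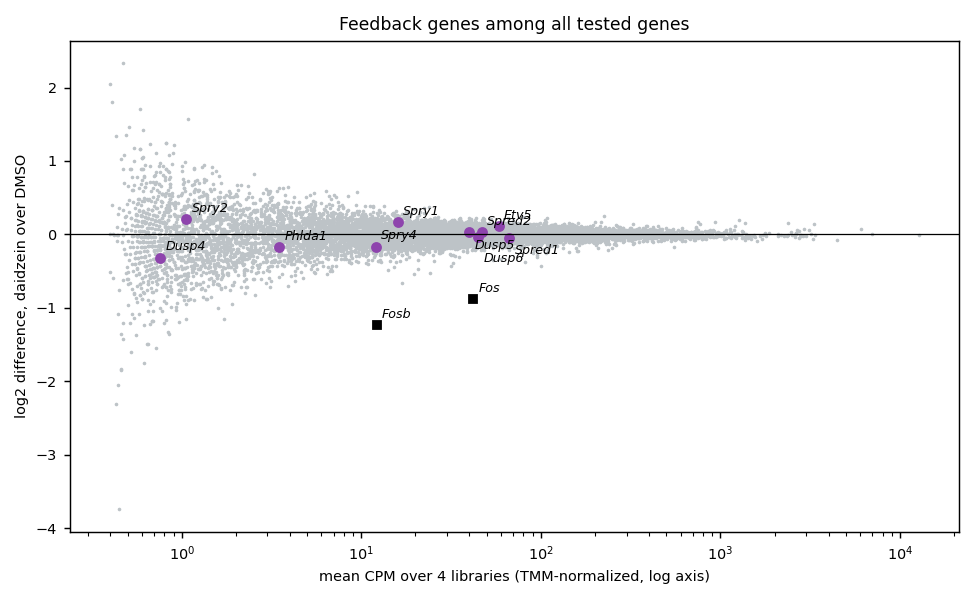
Log2 difference between daidzein and DMSO against mean CPM (log axis) for 11700 tested genes (grey), the 10 feedback genes (purple) and Fos and Fosb (black squares). The spread of all genes widens toward low counts, where Dusp4 at -0.32 and Spry2 at 0.21 lie. Fos is at -0.88 and Fosb at -1.23.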

How the data were processed

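RNA sequencing of 2 daidzein and 2 DMSO libraries was grouped by the treatment labels. The build mm9, the aligner HISAT2 2.0.1, HTSeq 0.6.1 and DESeq2 are listed in the submitters' processing notes, which assign them no steps. The strand setting used in counting is unknown here. The deposited coordinates are those of GRCm38: of 55401 rows, 55141 matched GENCODE M21 and 99.6% of these had the same start. The deposited table holds raw read counts, as the values show, and FPKM values by the authors, which lay within 0.01 of count over length and library total for 100% of 65326 values with a read. Exonic gene length is a further deposited column, in bases. Antisense genes overlap Dusp5, Spry1, Spry4 and Phlda1, with at most 22 reads per library, whose reads could be mixed with theirs if strand was not used.

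The test of counts was that of edgeR 4.0.16, run in R 4.3.3 (TMM, default filterByExpr with a minimum count of 10, quasi-likelihood F test, Benjamini-Hochberg threshold of 0.05, no fold threshold). The intervals are not an output of that test. Their standard error was the absolute log2 difference over the square root of the F value. It was multiplied by a t quantile at edgeR's degrees of freedom, which include those borrowed from other genes. CPM with an SD are scaled by TMM. Alternatives were DESeq2 1.42.0, limma 3.58.1 on log2 FPKM with a pseudocount of 1 or 0.1, other scalings and filters, robust estimation, the replicate number as a block and each library left out. A blastn 2.17.0 search for copies (95% identity, 0.5 of a transcript) found 1, for Etv5. All 6 pairs of libraries differed by more than sampling noise, with a chi-square per degree of freedom of 2.23 to 4.81. A count of 0 allows up to 3 reads, 0.162 to 0.185 CPM; intervals from pooled reads and floors cover counting error only.

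Members and lists were chosen with earlier results of these data known. Genes named are the 10 members, from each list those called or otherwise the 2 with the smallest p, Kit, Mapk3, and the 3 genes closest to Dusp6; Egr1, Junb, Ier2, Ier3 and the marker and receptor genes were named after their values were seen. The result for 1 further gene that this rule names is not reported here. On simulated data for daidzein against DMSO, with 200 of 11700 genes changed, edgeR's test found 54% of the 1.3-fold changes and 78% of the 1.5-fold ones. It found 91.7% of 2-fold and 100% of 4-fold changes. There were 9 false calls, and 1 call where no gene was changed. These percentages belong to a setting with 200 changed genes and cannot be carried over to these data. A Benjamini-Hochberg adjusted p depends on how many other genes have small p-values, and only Fos and Fosb were called here. Ier3, with a fold of 0.739, and Junb, with 0.805, each had an adjusted p of 0.628 by edgeR.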

Additional observations from a re-analysis of the deposited data

How the results depend on the processing

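In every setting tried 0 of the 10 feedback genes were called, and the smallest adjusted p of any was 0.836, for Etv5 with the replicate number as a block. Dusp4, Phlda1 and Spry2 had no value under the stricter filter of 5 CPM in at least 2 libraries. With 1 library left out, log2 differences ran from -0.79 to 0.066 for Dusp4, -0.070 to 0.13 for Dusp5, -0.078 to 0.12 for Spred2 and -0.29 to 1.03 for Spry2, changing direction, and from -0.45 to 0.0098 for Dusp1, -0.11 to 1.38 for Dusp10, -0.16 to 0.069 for Etv4, -0.32 to 0.018 for Il6st, -0.073 to 0.00049 for Kit, -0.049 to 0.18 for Mapk3 and -0.0053 to 0.18 for Rasa1. None of these 11 genes was called in any setting. The count of all genes called by edgeR, 2, was 11 without the low-count filter, 1 with the stricter one, 1 by DESeq2, 0 by limma on FPKM with either pseudocount (461 and 456 genes at an unadjusted p under 0.05 with a pseudocount of 1 and 0.1), and 4 to 17 with a library left out. Leaving out replicate 1 or 2 of daidzein gave 11 or 17, and of DMSO 4 or 12. The count within the pathway lists, 2, was 4 with no filter, 1 with the stricter filter, 1 by DESeq2, 0 by limma with either pseudocount, and 2 to 5 with a library left out. DESeq2 on all genes with a read, chosen after seeing the data, called 2 in both. With the replicate block the counts were 27 and 5; the numbers were not taken to pair the libraries, since no label says so and same-numbered deviations correlated at 0.09, a single value, as the deviations of 2 libraries mirror each other. In a chi-square per degree of freedom of their counts, same-numbered libraries were the closest pairs, at 3.51 for replicate 1 and 2.23 for replicate 2, against 4.38 within daidzein and 4.17 within DMSO. Leaving out a library put the summed ratio of 1.01 between 0.992 and 1.03. The cause of these changes was not tested. Dusp4 and Spry2 had 9 to 26 reads per library. Fits without 1 library assume that the lone library of its group varies like the other group.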
